A study of Homo sapiens with 4 samples.

Results

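Polysome association without treatment was described in the glioblastoma line LN229, a long-established human culture, by setting polysomal RNA against total RNA of untreated cells. Each fraction is 1 array sample, so the comparison rests on 2 of the 4 samples of the series. The members were all probe sets that carry 1 gene symbol, 16127 of 65528, which gave 15593 named genes, 7749 of them coding. These probe sets cover chromosomes 1 to 8 and part of 9 only. Each gene class below therefore holds just the members measured there and not the whole family. Untreated cells were grown in DMEM with serum and gentamycin. The other samples of the series, the same fractions after 5 µM ATO for 6 h, were not used at any step. Polysomal RNA was collected from a sucrose gradient after lysis in a hypotonic buffer that held cycloheximide, per the labels. The design text gives technical triplicates that were pooled, so a fraction has 1 value per probe set and no replicate error, and no test or p-value is given.

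Polysomes are mRNAs that carry several ribosomes at once, and cycloheximide holds the ribosomes in place during lysis. An mRNA that is being translated sediments deep in the gradient, while free mRNPs and small noncoding RNAs stay near the top. A polysomal to total comparison therefore asks how strongly each RNA is represented among translated messages relative to the whole pool. Replication histone mRNAs and mRNAs with a 5′ terminal oligopyrimidine tract (TOP mRNAs, chiefly those of ribosomal proteins) are textbook classes under their own translational control.

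Values are on the deposited log2 scale, and a difference is polysomal minus total RNA, so a positive one means more signal in polysomal RNA. Medians over all probe sets were 4.22 in polysomal and 4.26 in total RNA, and the 2 samples correlated at r = 0.987 across all probe sets, a description of shared probes rather than of replicates. Values over 16, above what plain log2 scanner brightness reaches, occurred in 384 probe sets, so a fold on this scale need not be a fold of RNA. Genes were kept where the mean of both samples was at least 7.83, the median of coding genes, which left 3877 coding and 799 other named genes. Of these coding genes, 3845 reached that level in polysomal and 3819 in total RNA, so some passed through 1 sample alone. Among those named below, QDPR, CENPW, RAB33B, H4C9, H3C10 and H2AC15 passed through polysomal and CCN2 through total RNA. In bulk RNA, fewer cells that use a gene and fewer transcripts per cell cannot be told apart. Of 21 markers listed for a mesenchymal glioma line, 15 were measured and 12 passed the filter, with ANXA1 (17.59 polysomal, 17.67 total), CAV1 (17.07, 16.83) and FN1 (15.69, 16.43) bright. LOX, CCN1 and COL1A2 lay below the filter. None of 5 blood markers measured (11 listed) and none of 4 epithelial markers measured (9 listed) passed. Of 4 neuron markers measured (11 listed) 1 did, GAD1 (9.15, 9.32). Of 2 astrocyte and oligodendrocyte markers measured (10 listed) 1 did, SLC1A3 (8.33, 8.24).

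The nearest thing to an error in these samples came from genes without expected expression and from repeated probe sets. Olfactory receptor genes, a family glioma cells are not known to use, had differences with a median of 0.06 and an SD of 0.33 over 100 genes, at a median signal of 4.19. None of them passed the filter. Coding genes with more than 1 probe set past the filter numbered 13, and their probe sets differed from each other by a median of 0.2, from 0.03 in PIK3CB to 1.11 in SFPQ. Neither measure is a replicate. A single gene's difference of 0.33 or less lies within them, but a larger one need not lie beyond error. The olfactory SD was taken at low signal and need not hold for genes past the filter. Probe set gaps in SEMA3A (0.59) and SFPQ exceeded the 0.58 of a 1.5-fold difference, and those of the other genes were 0.53 or less.

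Coding genes were shifted toward polysomal RNA on the deposited scale. Of the 3877 that passed the filter, 2573 (66.4%) stood above 0, and the median difference was 0.19 with quartiles of -0.1 and 0.46. Genes over 1.5-fold higher in polysomal RNA, the threshold of the series' design text, numbered 627 (16.2%), and 183 (4.72%) were over 1.5-fold lower. Over 2-fold, 58 (1.5%) were higher and 26 (0.671%) lower. The split depended on the scaling: with each sample centred on its median over these coding genes 233 were higher and 385 lower, and subtraction of a loess trend on mean signal gave 247 and 361. The median of each class of coding genes below is therefore followed in brackets by its value relative to the coding median of 0.19, and class counts stand against 66.4% above 0, 16.2% over 1.5-fold higher and 4.72% lower over all coding genes. At the edge of the threshold, AIG1 stood at 0.59 and ADGRG6 at 0.58 on the high side, and ABCF2 at -0.59 and ERAP1 at -0.58 on the low side.

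The spread of differences grew with signal. All 7749 coding genes were ranked by mean signal into 10 bins of equal size. In bin 1, with the lowest signal (2.49 to 3.84), the median difference was 0.05 with an interquartile range of 0.3, and 1.94% were over 1.5-fold higher and 0.774% lower. In bin 5 (6.21 to 7.83) the median was 0.14, the range 0.44 and the shares 9.68% and 2.32%. Bin 10, with the highest signal (13.34 to 19.18), had a median of 0.21, a range of 0.59, 18.6% higher and 4.77% lower. The median was 0.21 in each of bins 8 to 10. The brightness of a probe set also reflects its probes, so these bins order signal and not transcript number.

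**Figure D1:**
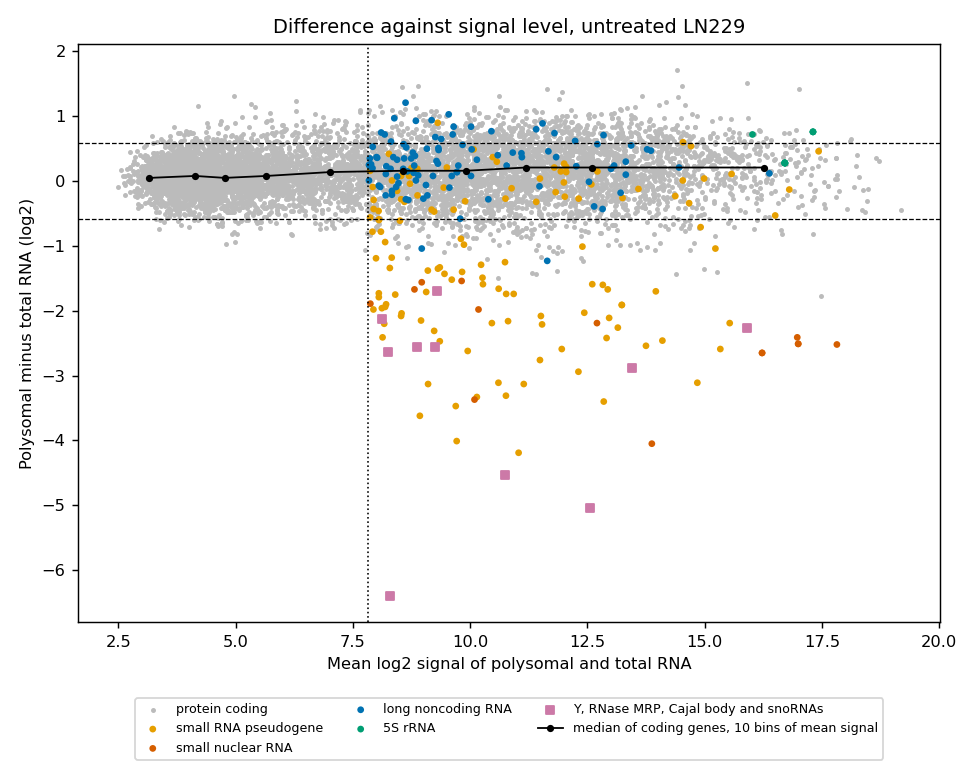
Polysomal minus total RNA (log2, vertical axis) against the mean log2 signal of both samples (horizontal axis) for coding genes and for noncoding genes past the filter. Dashed lines mark 1.5-fold, the dotted line the filter at 7.83, and the black line the median in 10 bins of coding genes, which runs between 0.05 and 0.21. Small noncoding RNAs reach far below the coding genes, down to -6.4.

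At the high end, 5 of the 12 coding genes with the highest difference were replication histones, the core proteins that package newly made DNA. H2BC14 had 15.26 in polysomal and 13.55 in total RNA, a difference of 1.71 (3.27-fold). H2BC12 had 16.67 and 15.15 (1.52), H2AC8 15.24 and 13.78 (1.46), H3C1 9.61 and 8.15 (1.46) and H4C5 17.72 and 16.3 (1.42). All 5 lie on chromosome 6, and probes may be shared among histone genes of nearly the same sequence. QDPR, which recycles the tetrahydrobiopterin cofactor, had 9.27 in polysomal and 7.82 in total RNA (1.45), its total value just below the filter level. The others were the interferon-inducible IFI6 (12.35 and 10.93), TMEM41A (12.64 and 11.26), the lipase gene DDHD2 (11.28 and 9.96), SCRG1 (14.33 and 13.02), WRAP73 (9.43 and 8.12) and LEPROTL1 (15.08 and 13.78), with differences of 1.3 to 1.42.

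The 12 coding genes with the lowest differences came from several classes. YBX1, an mRNA-binding cold shock protein on chromosome 1, had 16.59 in polysomal and 18.36 in total RNA, a difference of -1.77 (3.41-fold lower). KANSL1L had 9.85 and 11.35 (-1.5), and the lamin genes LMNB1 (10.7 and 12.13) and LMNA (13.68 and 15.11) both stood at -1.43. SAP130, a subunit of the SIN3 corepressor, had 10.62 and 12.03 (-1.41), and SMARCA5, the ISWI chromatin remodelling ATPase, 11.17 and 12.55 (-1.38). PLAT, which encodes tissue plasminogen activator, had 14.56 and 15.96 (-1.4), and ARPC1A of the actin-nucleating ARP2/3 complex 14.31 and 15.67 (-1.36). The bifunctional tRNA synthetase gene EPRS1 (11.79 and 13.02), the mitotic kinesin KIF20A (9.77 and 10.97), ZNF124 (8.06 and 9.25) and the poly(A)-binding protein gene PABPC4 (11.76 and 12.95) closed the group, between -1.19 and -1.23.

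**Figure D2:**
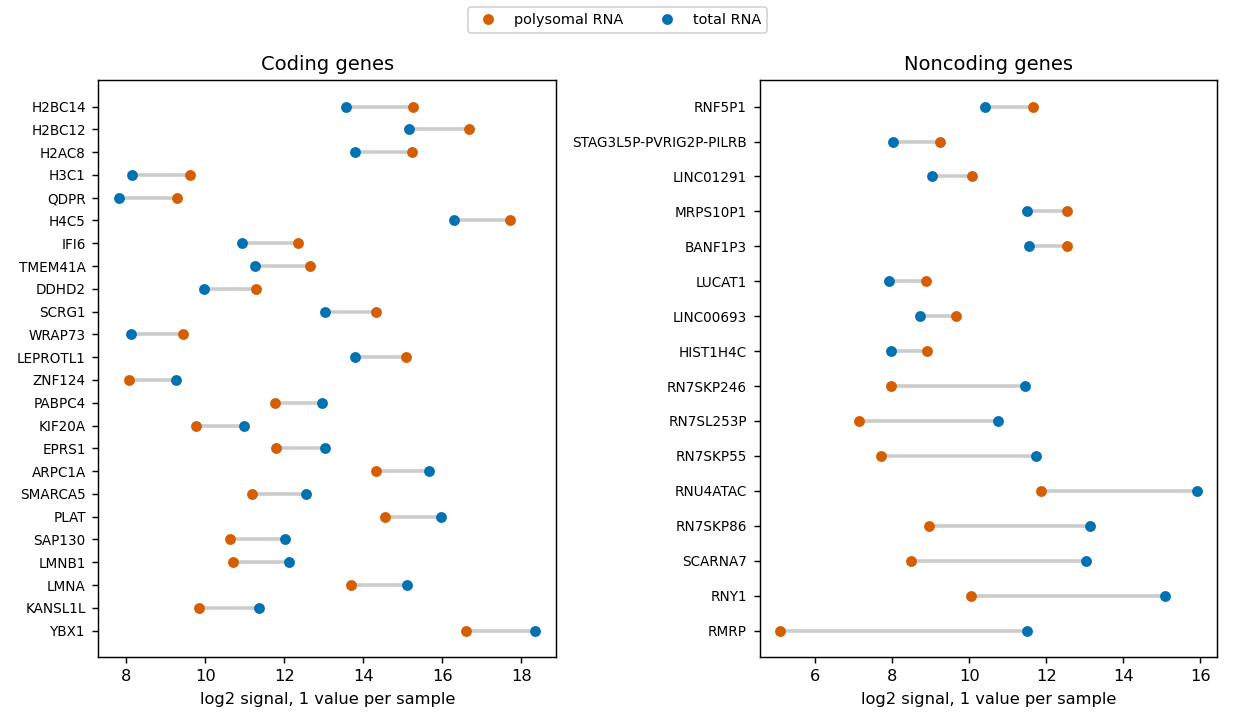
Log2 signal in polysomal and total RNA is shown on the horizontal axis, with 1 value per sample. On the left are the 12 highest and 12 lowest coding genes, on the right the 8 highest and 8 lowest noncoding or untyped genes. Among the highest on the right, HIST1H4C (8.89 polysomal, 7.96 total) carries a histone symbol and had no coding type. Coding gaps run from 1.71 in H2BC14 to -1.77 in YBX1, and the lowest noncoding gene, RMRP, has a gap of -6.4.

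Noncoding RNAs of the nucleus and of small ribonucleoproteins gave by far the largest differences. Among the 799 noncoding or untyped named genes past the filter, 69 (8.64%) were over 1.5-fold higher in polysomal RNA and 189 (23.7%) lower, and 129 (16.1%) were over 2-fold lower and 4 (0.501%) higher. Over all 4676 named genes past the filter, 372 (7.96%) were over 1.5-fold lower and 155 (3.31%) over 2-fold lower. RMRP, the RNA of the nucleolar ribonuclease MRP on chromosome 9, had 5.09 in polysomal and 11.49 in total RNA, a difference of -6.4. Its polysomal value lies below the filter level, so the gene passed through its total value. RNY1, a Y RNA that binds the Ro60 protein, had 10.04 and 15.08 (-5.04). SCARNA7, a guide RNA of Cajal bodies, had 8.48 and 13.02 (-4.54), and RNU4ATAC, the U4 RNA of the minor spliceosome, 11.85 and 15.9 (-4.05).

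All 14 genes past the filter that RefSeq types as small nuclear RNA, the U RNAs of the spliceosome and RN7SK, were over 2-fold lower, with a median of -2.46 and a range of -4.05 to -1.54. RNU1-2 and RNU1-4 held the same pair of values (14.9 polysomal, 17.55 total), as did RNU1-3 and RNVU1-18 (15.74, 18.25), so the 14 genes held 12 distinct pairs. RNU5D-1 had 9.05 and 10.59, RNU5E-1 9.19 and 11.17, and RNU11, of the minor spliceosome, 6.93 and 8.82. With their many copies included and RN7SK left out, 68 of 959 loci of U RNAs passed, 55 of them over 1.5-fold lower and 4 above 0. By kind, U1 loci had a median of -2.42 (24 past the filter), U6 loci -1.46 (34) and the 2 U4 loci -3.37. Copies above 0 included RNU6-177P (10.32 polysomal, 9.83 total) and RNU1-74P (10.72, 10.42).

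The 7SK RNA, which holds the elongation factor P-TEFb inactive, was likewise lower in polysomal than in total RNA. RN7SK had 16.56 in polysomal and 19.08 in total RNA (-2.52), and its 10 copies past the filter ran from -1.79 (RN7SKP124) to -4.19 (RN7SKP86). Y RNAs other than RNY1 stood at -2.26 (RNY3, 14.77 and 17.03) and -2.12 (RNY4, 7.06 and 9.18), and RNY5, below the filter, at -1.72 (5.25 and 6.97). The snoRNAs past the filter were SNORD13 (12.02 and 14.9), SNORD82 (6.93 and 9.56), SNORA22 (7.97 and 10.53) and SNORA63 (7.59 and 10.15), between -2.88 and -2.56. SCARNA2 had 8.46 and 10.15 (-1.69). All 4 vault RNAs lay below the filter, at a signal where differences are uncertain: VTRNA1-1 had 4.09 and 5.69, VTRNA1-2 3.48 and 4.98, VTRNA1-3 3.98 and 6.32, and VTRNA2-1 3.31 and 3.61. TERC, the telomerase RNA, was as dim, with 4.36 and 4.57.

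Copies of 7SL, the RNA of the signal recognition particle that docks ribosomes at the endoplasmic reticulum, were divided. Of 48 past the filter, 24 were over 1.5-fold lower, 1 over 1.5-fold higher and 9 above 0, with a median of -0.58. RN7SL253P (7.12 polysomal, 10.74 total), RN7SL408P (8.48, 11.81) and RN7SL126P (13.29, 16.4) were lowest, from -3.62 to -3.11. RN7SL689P (9.76, 8.86), RN7SL215P (10.67, 10.3) and RN7SL602P (12.16, 11.94) were highest. The 5S rRNA genes of chromosome 1, a component of the large ribosomal subunit, all stood above 0: 10 genes held 3 distinct value pairs. RNA5S7, RNA5S10 and RNA5S17 had 17.69 in polysomal and 16.93 in total RNA (0.76), RNA5S9 16.38 and 15.66 (0.72), and the other 6 genes 16.85 and 16.57 (0.28). With copies included, 28 loci had a median of 0.28, and 22 were above 0.

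Part of the small RNAs entered through total RNA alone. Of 129 small RNA pseudogenes past the filter, 128 reached its level in total and 103 in polysomal RNA, so their counts partly follow from the filter. Over all measured small RNA pseudogenes, most of them dim with a median signal of 4.51, the median difference was -0.29, against -1.04 past the filter. Of 87 snoRNAs measured, 4 passed, 2 of them with a polysomal value below the filter level, and the median over all 87 was -0.35. The 23 small nuclear RNAs measured had a median of -1.89.

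**Figure D3:**
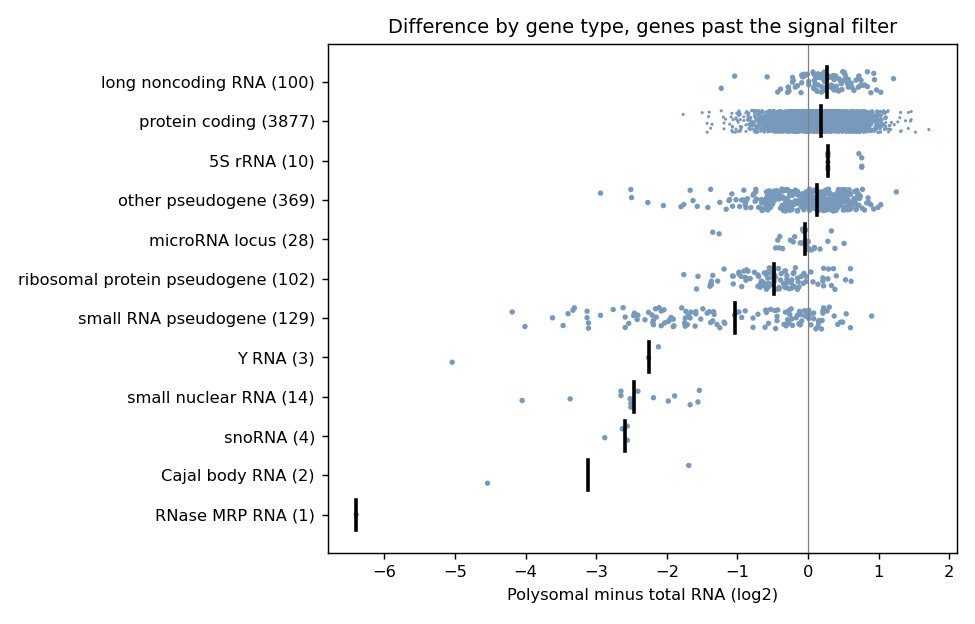
Polysomal minus total RNA (log2, horizontal axis) by gene type for genes past the signal filter, with the number of genes in brackets, a point per gene and a black bar at the median. Long noncoding RNAs (median 0.27) and coding genes (0.19) overlap, while small nuclear RNAs (-2.46) and the 4 snoRNAs past the filter (-2.6) lie apart from both; over all 87 snoRNAs measured the median was -0.35.

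Long noncoding RNAs did not follow the small RNAs. The 100 that passed the filter had a median of 0.27, with 78 above 0, 19 (19%) over 1.5-fold higher and 2 (2%) over 1.5-fold lower, close to the coding genes. All 100 reached the filter level in polysomal and 91 in total RNA, so the filter favoured positive values here, and over all measured long noncoding RNAs, at a median signal of 4.17, the median was 0.02. Highest were the readthrough STAG3L5P-PVRIG2P-PILRB (9.23 polysomal, 8.02 total), LINC01291 (10.06, 9.03), LUCAT1 (8.87, 7.9) and LINC00693 (9.65, 8.71). Lowest were LINC00622 (11.03, 12.26) at -1.23 and LINC01419 (8.45, 9.49) at -1.04, which were also the only 2 over 1.5-fold lower. Antisense and divergent RNAs, a class drawn by symbol that also holds intronic RNAs (IT), had a median of 0.24 over 43 genes. They ran from LYRM4-AS1 (9.31, 8.38) and UBA6-DT (10.07, 9.23) to FGD5-AS1 (12.61, 13.04) and the intronic WWTR1-IT1 (9.5, 10.08). Of the host genes of snoRNAs and microRNAs, MIR4435-2HG had 14.56 and 14.35, SNHG33 8.98 and 9.2, and EPB41L4A-AS1 12.45 and 12.84.

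MicroRNA loci were close to 0, with a median of -0.05 over 28 loci past the filter of 590 measured. MIR3654 (14.99 polysomal, 16.34 total) and MIR4284 (7.32, 8.58) were the only 2 over 1.5-fold lower, and none was over 1.5-fold higher. An array of this kind reads the locus and does not separate a mature microRNA from its precursor or host transcript.

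Pseudogenes resembled their parent genes. A pseudogene was paired with the coding gene whose symbol it carries wherever both passed the filter, which gave 184 pairs of 106 parents. The differences of pseudogene and parent correlated at r = 0.79 (Spearman's rho 0.78) across pairs, 155 had the same sign, and the median gap was 0.18. Among them, the 28 pairs of ribosomal protein genes had r = 0.26 (rho 0.4), with 27 of the same sign. Pairs can share probes and several share a parent, so they are not independent. YBX1P2 (9.44 polysomal, 11.2 total) stood at -1.76 beside YBX1 at -1.77, TCAF1P1 (11.44, 12.36) at -0.92 beside TCAF1 at -0.96, and NDUFB4P12 (9.57, 8.74) at 0.83 beside NDUFB4 at 0.92. RNF5P1, the highest of the noncoding genes (11.64, 10.39), stood at 1.25 beside RNF5 at 0.68, and MRPS10P1 (12.52, 11.49) at 1.03 beside MRPS10 at 0.44. Exceptions included the GTF2I copies, with GTF2IP20 (12.54, 12.25) at 0.29 beside GTF2I at -0.63. They also included GNG5P1 (14.81, 14.99) at -0.18 beside GNG5 at 0.72 and PTP4A1P7 (9.63, 9.98) at -0.35 beside PTP4A1 at 0.36. The PMS2 copies stood at 0.26 to 0.53 beside PMS2 at -0.02. The 102 ribosomal protein pseudogenes past the filter had a median of -0.48, with 38 (37.3%) over 1.5-fold lower, and RPSAP47 (9.55, 11.31) was lowest at -1.76. All 102 reached the filter level in total RNA but 92 in polysomal RNA, and the median over all 431 measured was -0.23.

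**Figure D4:**
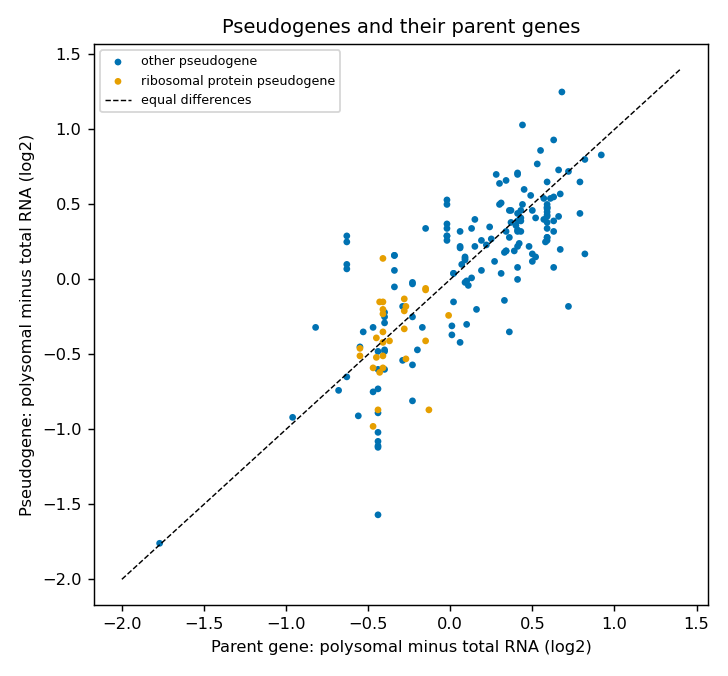
Polysomal minus total RNA (log2) of each pseudogene (vertical axis) against that of its parent gene (horizontal axis), for 184 pairs in which both passed the filter; the dashed line marks equal differences. Most pairs lie near the line, from YBX1P2 at -1.76 to RNF5P1 at 1.25.

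Translation genes came next, starting with the sequence that marks TOP mRNAs. For the 30 bases around the annotated start, 10 before and 20 from the first transcribed base on, the genes below show the run of pyrimidines at the start in capitals; sequences are RefSeq's on GRCh38.p14, read 5′ to 3′. The ribosomal protein genes with the lowest differences, RPS12 and RPL29, are shown first, then RPL24 and RPS14, whose runs are as long as that of RPS12, and EIF2A, a translation factor gene outside the ribosomal proteins. RPL9 and RPL11 have no pyrimidine at the annotated start, and TMEM167B has a short run but the highest difference of all genes with such a start.
RPS12 (chr6:132814559-132814588, plus strand): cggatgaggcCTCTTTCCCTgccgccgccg
RPL29 (chr3:51995876-51995905, minus strand): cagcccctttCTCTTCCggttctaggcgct
RPL24 (chr3:101686699-101686728, minus strand): atgattctctCTTTCTTTTCgccatctttt
RPS14 (chr5:150449720-150449749, minus strand): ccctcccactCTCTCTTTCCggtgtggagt
EIF2A (chr3:150546777-150546806, plus strand): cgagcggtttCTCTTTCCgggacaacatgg
RPL9 (chr4:39458903-39458932, minus strand): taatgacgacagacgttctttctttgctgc
RPL11 (chr1:23691769-23691798, plus strand): cctggcccataaggccctcggccggaagct
TMEM167B (chr1:109090754-109090783, plus strand): actacggcttCTTCCagtcacctcggcccg

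Genes with a pyrimidine start had a lower median difference than other coding genes, with fewer of them over 1.5-fold higher but a like share over 1.5-fold lower. A pyrimidine start was a C at the first base within a run of at least 5 pyrimidines, on the gene's strand only. RefSeq's table held a promoter for 3236 of the 3877 coding genes (83.5%); 5.32% of these and 4.04% of all 27305 genes in the table had such a start. The 172 with it had a median difference of 0.02, against 0.2 in the other 3064, and 17 of them (9.88%) were over 1.5-fold higher, against 17.1%. Over 1.5-fold lower were 9 (5.23%), against 143 (4.67%). The gap between the medians was -0.18, and -0.09 with no filter on signal. Without the 14 ribosomal protein genes among them the median was 0.06. By length, runs were counted from a first C or T, which adds 4 genes that start with T. Among runs of at least 5, longer ones had lower medians, also without ribosomal protein genes: 0.13 for runs of 5 to 6, 0.06 for 7 to 8 and -0.05 for 9 or more (45 genes), against 0.2 for genes with none. Of the 50 genes with runs of 9 or more, 2 (4%) were over 1.5-fold higher and 2 (4%) lower. An annotated start need not be the start that the cells use, and a run is a description of the sequence. Over 5 bins of promoter GC content the medians lay between 0.16 and 0.21 (rho = 0.03 across genes). The share over 1.5-fold higher was 19.9% in the bin with the lowest GC and, with each step up in GC, 17.8%, 16.4%, 15.3% and 14.2%, and the share lower was 5.71% at the lowest and 2.63% at the highest GC.

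All 21 cytosolic ribosomal protein genes measured, a part of the family, stood below 0. Their median was -0.35 (-0.54 relative to coding genes), and 3 were over 1.5-fold lower. RPS12 had 14.79 in polysomal and 15.64 in total RNA (-0.85), RPL29 14.2 and 14.97 (-0.77) and RPL9, shown above without a pyrimidine start, 15.82 and 16.42 (-0.6). At the other end RPL22 (17.53, 17.54), RPL11 (18.13, 18.22) and RPL30 (18.32, 18.45) were near 0. Runs of 10 pyrimidines occurred in RPS12 (-0.85), RPL24 (-0.45), RPS14 (-0.31) and RPL31 (-0.14). Mitochondrial ribosomal protein genes, whose products translate the mitochondrial genome, lay on the other side: 29 of 35 were above 0, 10 were over 1.5-fold higher and none lower, with a median of 0.42 (0.23 relative to coding genes). MRPS17 (12.06, 11), MRPL22 (9.52, 8.62) and MRPS14 (13.26, 12.41) were highest, and MRPS27 (10.07, 10.53) lowest.

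Genes with an EIF symbol, grouped as initiation factors, had a median of 0.04 (-0.15) over 20, with 10 above 0. The 3 over 1.5-fold higher (15%) were near the 16.2% of all coding genes, and 2 (10%) were lower. Not all 20 are initiation factors. The EIF2 kinase genes EIF2AK1 (0.39), EIF2AK2 (0.23) and EIF2AK3 (0.6, 1 of the 3 higher) were among those above 0. So were EIF4EBP1 (0.38), whose product binds EIF4E, and EIF5A2 (0.42), also listed with the elongation factors. The cap-binding proteins EIF4E2 (13.2, 12.46) and EIF4E (14.81, 14.14) were at 0.74 and 0.67, whereas EIF3H (16.25, 17.01) and EIF2A (10.22, 10.97) were at -0.76 and -0.75 and EIF3E (16.1, 16.65) at -0.55. Among 6 elongation and release factor genes, with a median of -0.12 (-0.31), HBS1L, which rescues stalled ribosomes, had 12.04 and 11.2 (0.84), and EEF1D 16.89 and 17.71 (-0.82). Aminoacyl-tRNA synthetase genes had a median of -0.07 (-0.26) over 14, none over 1.5-fold higher, with RARS2 (12.29, 11.86) and SARS1 (12.94, 12.68) high and EPRS1 and LARS1 (13.7, 14.38) over 1.5-fold lower.

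Medians of nuclear-encoded mitochondrial genes beyond the ribosome also lay above that of all coding genes. The respiratory chain and ATP synthase had 26 of 29 genes (89.7%) above 0, against 66.4% of all coding genes, 13 (44.8%) over 1.5-fold higher, against 16.2%, and none lower, with a median of 0.56 (0.37). NDUFA2 (12.32, 11.33), NDUFS6 (16.41, 15.44) and NDUFB4 (14.27, 13.35), all of complex I, led at 0.92 to 0.99, and UQCRHL (9.83, 10.13) and the flavoprotein subunit SDHA (10.61, 10.9) closed the list at -0.3 and -0.29. Import and carrier proteins were closer to other coding genes, with a median of 0.31 (0.12) over 18 genes and 4 (22.2%) over 1.5-fold higher, against 16.2%. The inner membrane translocase gene TIMM17A (13.95, 12.93), SLC25A36 (9.98, 8.98) and the adenine nucleotide carrier SLC25A4 (14.23, 13.42) were high. TOMM70, a receptor for imported precursors (10.64, 11.11), was lowest at -0.47.

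**Figure D5:**
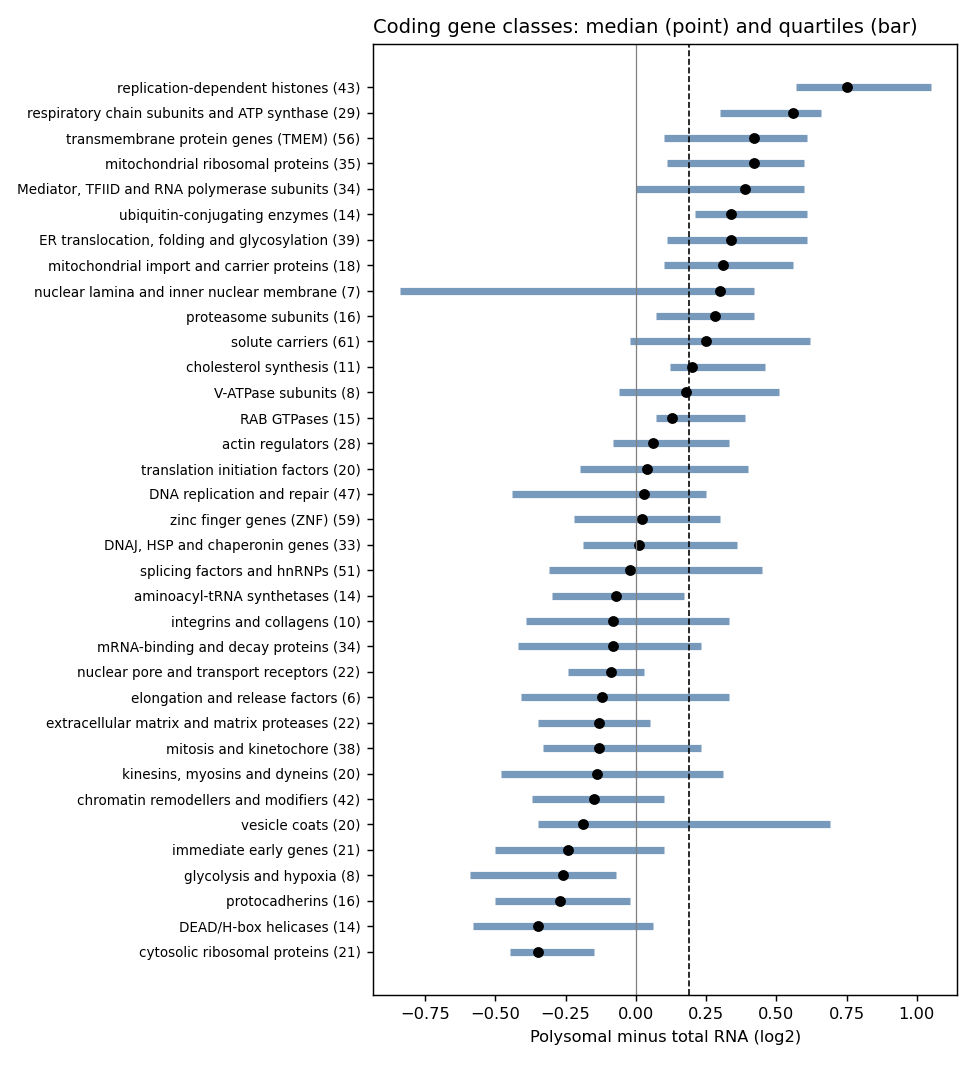
Median (point) and quartiles (bar) of polysomal minus total RNA (log2, horizontal axis) for 35 classes of coding genes with at least 5 members past the filter, whose number is in brackets; the dashed line is the median of all coding genes, 0.19. Replication histones (0.75) and the respiratory chain (0.56) stand highest, and DEAD/H-box helicases and cytosolic ribosomal proteins (-0.35 each) lowest.

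Among nuclear genes, medians of replication histones and of transcription complexes lay above that of all coding genes, and those of remodellers, pores and helicases below it. Replication histones had 41 of 43 genes above 0 and 32 (74.4%) over 1.5-fold higher, with a median of 0.75 (0.56). H2AC20 (15.39, 15.36), H2AC6 (9.73, 9.76) and H4C8 (15.29, 15.34) were the exceptions near 0. All 43 reached the filter level in polysomal and 40 in total RNA. H4C9, H3C10 and H2AC15, each over 1.5-fold higher, passed through their polysomal values. Over all 57 measured the median was 0.68. Replication-independent histone variants were lower: H2AZ2 had 16.54 and 15.94 (0.6), H2AZ1 16.42 and 15.95 (0.47), CENPA 9.48 and 9.44 and MACROH2A1 13.79 and 13.76. Mediator, TFIID and RNA polymerase subunits had a median of 0.39 (0.2) over 34 genes, 9 over 1.5-fold higher and 1 lower. TAF13 (15.33, 14.33), TAF8 (13.14, 12.14) and POLR2D (12.71, 11.9) were highest, and the catalytic RNA polymerase I subunit POLR1A (9.4, 10.06) and TAF7 (12.03, 12.57) lowest.

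Splicing factors ran from -1.07 to 1.08, with a median of -0.02 (-0.21) over 51 genes. Of these, 8 (15.7%) were over 1.5-fold higher and 3 (5.88%) lower, near the 16.2% and 4.72% of all coding genes. The U1 protein gene SNRPC (9.7, 8.62), LSM8 (12.48, 11.56) and the exon junction protein RBM8A (14.57, 13.73) stood at 0.84 to 1.08. SNRNP200, the helicase that unwinds U4/U6 (14.15, 15.22), HNRNPU (16.23, 17.05) and SF3A3 (12.72, 13.39) stood at -0.67 to -1.07. DEAD/H-box helicases had a median of -0.35 (-0.54) over 14 genes, 4 over 1.5-fold lower and none higher. DHX9 (11.23, 12.31), DDX46 (10.95, 11.94) and DHX15 (11.99, 12.74) were lowest, and DDX59 (10.24, 9.95) highest at 0.29.

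Chromatin remodellers and modifiers had 14 of 42 genes above 0, none over 1.5-fold higher and 7 (16.7%) lower, with a median of -0.15 (-0.34). Beside KANSL1L, SAP130 and SMARCA5, the BAF subunit SMARCC1 (12.54, 13.2) and the DNA demethylase TET2 (10.13, 10.74) were over 1.5-fold lower, and HDAC3 (12.74, 12.18) was highest at 0.56. Nuclear pore genes and transport receptors were narrowly spread around -0.09 (-0.28), and none of 22 passed 1.5-fold in either direction; NUP153 (13.13, 13.71) was lowest and POM121 (14.42, 14.11) highest. The nuclear lamina group had a median of 0.3 (0.11) over 7 genes: beside the 2 lamins at -1.43, TOR1AIP1 (14.19, 14.43) was at -0.24, LBR (11.41, 11.11) at 0.3, and TOR1AIP2 (12.78, 12.32), SUN1 (10.95, 10.52) and LEMD2 (11.44, 11.04) at 0.4 to 0.46. ZNF genes had a median of 0.02 (-0.17) over 59, with ZNF346 (10.09, 9.3) highest and ZNF124 lowest.

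Proteins that bind or degrade mRNA were split, 6 of 34 (17.6%) over 1.5-fold higher, near the share of all coding genes, and 5 (14.7%) lower, with a median of -0.08 (-0.27). Over 1.5-fold higher were CNOT9 (14.78, 13.56), CNOT6 (14.33, 13.69) and CNOT11 (12.77, 12.15) of the deadenylase complex, SMG5 of nonsense-mediated decay (11.63, 10.86), the decapping enzyme DCP2 (11.73, 11.02) and the exosome subunit EXOSC7 (11, 10.34). Other decay factors lay below 0, among them EXOSC9 at -0.51, the exonuclease XRN1 at -0.44, EXOSC10 at -0.4 and CNOT4 at -0.38. Over 1.5-fold lower were YBX1, PABPC4, SYNCRIP (14.13, 14.86), PCBP1 (14.52, 15.25) and nucleolin NCL (14.31, 15.03). The last 3 stood between -0.72 and -0.73.

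Cell cycle genes had medians below that of all coding genes. DNA replication and repair genes had a median of 0.03 (-0.16) over 47, 2 over 1.5-fold higher and 8 lower. The polymerase epsilon accessory subunit POLE4 (14.42, 13.62) and the smallest replication protein A subunit RPA3 (11.04, 10.4) were highest. DTL (11.41, 12.49), the mismatch repair gene MSH6 (9.47, 10.5) and the DNA-dependent kinase PRKDC (13.09, 14.04) were lowest, from -0.95 to -1.08. Mitosis and kinetochore genes had a median of -0.13 (-0.32) over 38, 4 higher and 4 lower. The centromere protein genes CENPW (8.65, 7.59) and CENPH (10.76, 10.03) and securin PTTG1 (14.31, 13.35) were high, and KIF20A, the condensin subunit NCAPH (10.78, 11.62) and HMMR (9.5, 10.32) low.

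In protein turnover, ubiquitin-conjugating enzymes had 13 of 14 genes above 0 with a median of 0.34 (0.15), led by UBE2J2 (9.66, 8.81), UBE2B (14.44, 13.7) and UBE2V2 (14.52, 13.83), while UBE2D4 (11.36, 12.38) alone was lower, at -1.02. Proteasome genes had a median of 0.28 (0.09) over 16, with the immunoproteasome subunit PSMB9 (11.74, 10.66), the assembly chaperone PSMG3 (12.54, 11.77) and PSMB1 (13.13, 12.56) high and the scaffold subunit PSMD1 (13.07, 13.59) low. Heat shock and chaperonin genes centred on 0.01 (-0.18) over 33, with DNAJB2 (10.44, 9.8) over 1.5-fold higher and HSPA4L (15.18, 15.82) over 1.5-fold lower.

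In the secretory pathway, genes of the endoplasmic reticulum had a higher median than those of vesicle coats. Translocation, folding and glycosylation genes of the endoplasmic reticulum had 32 of 39 above 0, 10 over 1.5-fold higher and none lower, with a median of 0.34 (0.15). ALG14 (11.22, 10.07), MANF (11.91, 10.82) and EDEM1 (10.72, 9.67) were highest, and ALG6 (9.82, 10.39) and the glucosidase MOGS (10.37, 10.82) lowest. Coat genes had a median of -0.19 (-0.38) with a wide spread, 6 of 20 over 1.5-fold higher and 2 lower. The adaptor subunit AP1S1 (10.47, 9.49) and the clathrin light chains CLTA (12.92, 12.06) and CLTB (14.33, 13.62) stood at 0.71 to 0.98, against COPA of the COPI coat (13.51, 14.32) at -0.81 and SEC31A of the COPII coat (12.4, 13.02) at -0.62. V-ATPase genes had a median of 0.18 (-0.02) over 8, from ATP6V0B (13.03, 12.01) to ATP6V1H (8.54, 9.11). RAB genes had 0.13 (-0.06) over 15, from RAB33B (8.53, 7.78) and RAB2A (14.18, 13.48) to RAB7B (12.92, 13.29).

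At the cell surface, the median of TMEM genes lay above and that of matrix genes below the coding median. TMEM genes, a set named for membrane spans alone, had 47 of 56 above 0, 15 over 1.5-fold higher and none lower, with a median of 0.42 (0.23). TMEM41A, TMEM167B (13.6, 12.55) and TMEM237 (12.56, 11.56) were highest. Solute carriers had a median of 0.25 (0.06) over 61, 18 (29.5%) higher and 2 lower. The sugar transporter SLC50A1 (11.67, 10.7) and the zinc importer SLC39A1 (10.06, 9.2) were high, and the glucose transporter SLC2A1 (10.87, 11.94) and the zinc importer SLC39A10 (11.37, 12.1) low. Matrix and matrix protease genes had a median of -0.13 (-0.32) over 22, none higher and 5 lower; beside PLAT these included FN1 (15.69, 16.43), CCN2 (7.64, 8.38) and LOXL3 (9.95, 10.64). Integrins and collagens had -0.08 (-0.27) over 10, with COL19A1 (12.27, 11.42) and ITGB5 (11.13, 10.48) high and ITGA2 (8.93, 9.6) low. Protocadherins, cell adhesion genes on chromosomes 4 and 5, had 3 of 16 above 0 and a median of -0.27 (-0.46), with none past 1.5-fold; PCDHB11 (8.84, 9.41) and PCDHB2 (9.09, 9.63) were lowest and PCDH10 of chromosome 4 (9.45, 8.95) highest.

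Within the cytoskeleton, subunits of one complex lay far apart. In the ARP2/3 complex ARPC4 had 14.32 in polysomal and 13.46 in total RNA (0.86), against ARPC1A at -1.36 and ARPC1B (12.65, 13.56) at -0.91. Actin regulators as a group had a median of 0.06 (-0.14) over 28, 3 higher and 4 lower, the others being CAPZA2 (9.29, 8.61) and PFN2 (13.49, 12.83) on the high side and TNS3 (11.95, 12.79) and EZR (11.2, 11.97) on the low side. Motor genes had a median of -0.14 (-0.33) over 20, with the dynein light chain DYNLT1 (11.46, 10.47) at 0.99 and the mitotic kinesins KIF20A at -1.2 and KIFC1 (8.9, 9.99) at -1.09.

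Immediate early genes, whose mRNAs turn over quickly, had 6 of 21 above 0 and a median of -0.24 (-0.43), with 4 over 1.5-fold lower and 1 higher. EGR1 (13.56, 14.52), MYC (9.4, 10.16) and CCN2 were lowest, and SRF (8.96, 8.08) highest. Glycolysis and hypoxia genes had 2 of 8 above 0 and a median of -0.26 (-0.45), with the oxygen sensor EGLN1 (13.56, 12.89) high and SLC2A1 and hexokinase HK2 (8.69, 9.53) low. Cholesterol synthesis genes had 10 of 11 above 0 and a median of 0.2 (0.01), from PMVK (10.18, 9.47) to HMGCS1 (9.07, 9.4). Of the 35 coding classes with at least 5 members past the filter, 12 had a median above that of all coding genes and 23 below it, between 0.56 and -0.54 relative to it. Some classes share members, and the genes of a class are not replicates of each other.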

How the data were processed

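Total and polysomal RNA of untreated LN229 cells were prepared for Affymetrix arrays with a WT reagent kit, per the labels' protocols. Affymetrix Expression Console was used, per the submitters' processing notes; its version, how probe sets were summarised and normalized, and the build were not stated in those sources. Log2 values as deposited (2.18 to 19.5 in these 2 samples, 2 decimals) were used as given. Probe sets cover chromosomes 1 to 8 and, with 1722 probe sets, part of 9; others were not analysed here.

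Of 65528 probe sets, 16127 had 1 symbol, 419 several and 48982 none in the platform annotation. Gene type came from RefSeq's GRCh38.p14 gene table, for 10775 probe sets by Entrez identifier and for 4990 by symbol; 362 had none. Coding genes needed an Entrez match, since 432 probe sets with a coding symbol but no identifier can lie away from the gene. Where a gene had several probe sets, the brightest by mean was taken. Differences, counts past 1.5-fold, medians and quartiles were computed with Python 3.11.15, pandas 2.3.3 and statsmodels 0.14.6, on steps tested on simulated data. Since each group holds 1 sample, no test was made; precision is limited by the number of arrays. Gene classes and members were chosen with earlier results of these data known. Named genes were the 12 highest and 12 lowest coding genes and the 8 highest and 8 lowest noncoding or untyped genes. Up to 3 genes at each end of a class were also named, and classes' members where 5 or fewer. Pseudogene pairs, start sequences, other class members and small RNAs named in the text were chosen after their values were seen. Alternatives were other scalings, filters, an offset of 32, a 2-fold threshold and the mean over probe sets.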

Additional observations from a re-analysis of the deposited data

How the results depend on the processing

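Medians of 50 classes and gene types, relative to coding genes, were compared under up to 10 settings. Of 494 values, 470 stayed within the 95% binomial interval of the median without turning sign. Centring each sample could not move these values, since its shift cancels, so the count overstates how stable they are. The interval treats the genes of a class as separate draws, though they are not replicates. It is wide for small, widely spread classes, which stay within it more easily. The 40 named genes kept their sign in all 400 comparisons, and RMRP alone moved by more than 0.33, to -5.46 with the offset of 32. They were picked for their extreme differences, and a change of filter leaves a gene's value as it is. The kept signs therefore say nothing about reliability. Counts of coding genes higher and lower were 58 and 26 at 2-fold, 352 and 90 with the filter at the 75th percentile (fewer genes tested), 247 and 361 after the loess subtraction and 233 and 385 with samples centred over coding genes, a setting chosen after the data were seen; 372 of all named genes were lower. The coding median was 0.23 with samples centred over all probe sets, 0.15 with quantile normalization, 0.12 with no filter, 0.01 after the loess subtraction and 0 when centred over coding genes. Genes with a pyrimidine start stood at -0.18 relative to other coding genes, and at -0.09 with no filter.

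Removing the filter, which adds dim genes, turned the sign of some medians relative to coding genes. It turned 5S loci to -0.14, LINC genes to -0.13, antisense and divergent RNAs to -0.1 and long noncoding RNAs as a type to -0.1. It turned RAB genes and genes with an EIF symbol to 0.01 each and V-ATPase genes to 0.2. It also moved 7SK loci to -0.71, U RNA loci to -0.38, small RNA pseudogenes to -0.41, ribosomal protein pseudogenes to -0.35 and microRNA loci to -0.13. The 75th percentile filter turned V-ATPase genes to 0.25, integrins and collagens to 0.08, the nuclear lamina group to -0.18 and the proteasome to -0.03, and moved DNA replication and repair to -0.39, ZNF genes to -0.28, U RNA loci to -2.63, antisense and divergent RNAs to 0.26 and 5S rRNA to 0.07. Quantile normalization moved 5S loci to 0.12. The cause was not tested beyond the change of genes tested. No paired analysis was possible because each group holds 1 sample. The planned comparisons by protein length and hydrophobic N-terminus were not run, since no protein sequences were used here.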

Other observations

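Antisense and divergent RNAs did not resemble their partner genes as pseudogenes resembled their parents. The comparison held 32 such RNAs that passed the filter with the coding gene they are named for, the intronic SPRY4-IT1 and WWTR1-IT1 included. Differences of RNA and partner correlated at r = 0.02 (Spearman's rho 0.01), and 16 pairs shared a sign. NIPBL-DT stood at 0.37 (11.29 polysomal, 10.92 total) beside NIPBL at -0.62, and RBMS3-AS2 at 0.47 (14.09, 13.62) beside RBMS3 at -0.51. PTPRG-AS1 (0.68) and PTPRG (0.58) were alike.

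Pseudogenes of the elongation factor gene EEF1A1 were lower than EEF1A1 itself, which had 18.96 in polysomal and 19.4 in total RNA (-0.44). All 9 copies past the filter were below it, from EEF1A1P6 (18.74, 19.22) at -0.48 to EEF1A1P14 (9.79, 11.36) at -1.57. The copies of HMGN2, a nucleosome-binding protein, were above 0, from HMGN2P20 (11.22, 10.96) at 0.26 to HMGN2P7 (10, 9.35) at 0.65, beside HMGN2 at 0.59.

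The 2 probe sets of SFPQ, a nuclear RNA-binding protein, disagreed in direction, at -0.67 and 0.44, and those of SEMA3A stood at -0.52 and 0.07. Coding medians by chromosome ran from 0.16 on chromosome 5 to 0.24 on chromosome 6, with 0.23 on chromosome 7.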
